A study of Mus musculus with 6 samples.

Results

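The genes followed here are the mouse counterparts of 38 genes that are recurrently mutated in human myelodysplastic syndrome (MDS) and acute myeloid leukemia (AML). They were chosen by symbol, from genes known to be mutated in patients, and matched to the Ensembl identifiers of the count tables through GENCODE M21. They are 38 of 39179 mouse genes listed, and 37 of the 15980 genes that had enough reads to be tested. By class, 7 act in splicing, 13 in chromatin and DNA methylation, 4 in the cohesin ring and 7 in signaling, and the last 7 are transcription factors and other nuclear regulators. RNA was prepared from whole bone marrow of 6 mice, all littermates. The 3 *MxCDX2* mice (genotype *RsCDX2::Mx1Cre*) carried the human *CDX2* coding sequence at *Rosa26* behind a stop that Cre removes, together with a Cre transgene under the interferon-inducible *Mx1* promoter, which is active in many cell types besides hematopoietic cells. Control 1 carried *RsCDX2* alone, control 2 carried *Mx1Cre* alone and control 3 was wild type, so that no control genotype was repeated. All 6 mice, controls included, were injected intraperitoneally 3 times with poly(I:C), an RNA mimic that triggers interferon, at 10 µg per g at an age of 3 months and were analysed 6 weeks later. The labels give daily injections, and the methods give 1 every 2 days.

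CDX2 is a homeobox transcription factor of the intestine that blood cells normally do not make and that is found in the cells of many patients with AML. The genes mutated in MDS and AML act at successive steps of gene control: splicing factors recognize and join the exons of messenger RNA precursors, DNA methylation enzymes and Polycomb proteins set which genes can be read, cohesin holds chromatin loops, and RUNX1, ETV6 and related factors direct blood cell formation. In patients these genes carry mutations that change or remove the protein, and a transcript level says nothing about such mutations.

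Between 38646101 and 49899650 reads per mouse were counted on genes. Reads were aligned to the mouse genome, so those of the human sequence could be counted on *Cdx2* only where they aligned to the mouse gene. *Cdx2* had 4, 0 and 0 raw reads in controls 1, 2 and 3 and 152, 155 and 183 in the *MxCDX2* mice (edgeR quasi-likelihood test, adjusted p = 0.00537). The labels and the targeted gene thus went together. None of the markers of blood cells was at 0 in any mouse, which by itself does not set bone marrow apart from other tissues with blood cells. The cellular makeup differed between the groups. All 10 erythroid markers were called lower, that is, had an adjusted p below 0.05, with a summed level of 1845087 to 2199886 normalized reads in the controls and 52405 to 205809 in *MxCDX2* mice, and 7 of 8 monocyte markers were called higher, with 59717 to 75002 against 302322 to 373847. Of 10 neutrophil markers 4 were called lower and 1 higher (sums of 1822834 to 3000279 against 942807 to 1224621), and 4 of 9 B cell markers (19598 to 58698 against 4781 to 16860), 2 of 6 T and NK cell markers (5419 to 7492 against 2200 to 4508), 1 of 4 megakaryocyte markers (13802 to 138938 against 7215 to 9234), 2 of 6 stromal markers (17335 to 59324 against 10473 to 19074), 4 of 12 proliferation markers (172386 to 255054 against 144687 to 177455) and 2 of 5 progenitor markers (7546 to 14351 against 8107 to 8757) were called lower. The megakaryocyte maximum of 138938 was that of the wild-type control, against 15423 and 13802 in the other controls. Its values were also the highest of the stromal and the progenitor sums, at 59324 and 14351, and the progenitor sums of the other controls, 8081 and 7546, were below those of all 3 *MxCDX2* mice. In bulk RNA, fewer cells of a type and less RNA per cell cannot be told apart, and the part of these shifts in any result given here was not tested.

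Of the 37 tested driver genes, 7 were higher in *MxCDX2* than in control bone marrow at an adjusted p below 0.05 (*Idh1*, *Tet2*, *Idh2*, *Cbl*, *Runx1*, *Etv6* and *Cux1*) and 2 were lower (*Bcorl1* and *Setbp1*). Of all tested genes, 9.91% were called higher and 11.8% lower, and of the tested driver genes 18.9% and 5.41%. With the further requirement of an absolute log2 fold change above 1, *Idh1* was the 1 driver gene called higher and *Setbp1* the 1 called lower, where 4.59% of all tested genes were called higher and 9.03% lower. The 3 *MxCDX2* mice lay above all 3 controls for 11 driver genes and below them for 4, against 21.4% and 20.7% of all tested genes, and for 22 the groups overlapped. Scaled by total counts alone, 9 driver genes were called higher and 1 lower, and of all calls 58.6% were higher, beside 45.6% here. The median log2 fold change of the 37 genes was 0.08, beside 0.00 over all tested genes, and their median absolute log2 fold change was 0.25, beside 0.39. A narrower set held the 12944 tested genes with a level per exon length at least that of the lowest tested driver gene. Its medians were 0.04 and 0.33. All these counts came from 3 mice per group and moved with single mice. The number of driver genes called higher fell to 4 without *MxCDX2* mouse 1 and to 2 without *MxCDX2* mouse 3. The number called lower was 6 without the wild-type control, 1 without *MxCDX2* mouse 1 and 0 without any of the other 4. Over all tested genes, 1583 were called higher with all 6 mice, 1061 without *MxCDX2* mouse 1 and 703 without *MxCDX2* mouse 3. Called lower were 1888 with all 6 mice, 2241 without the wild-type control and 779 to 1469 without any other mouse.

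**Figure D1:**
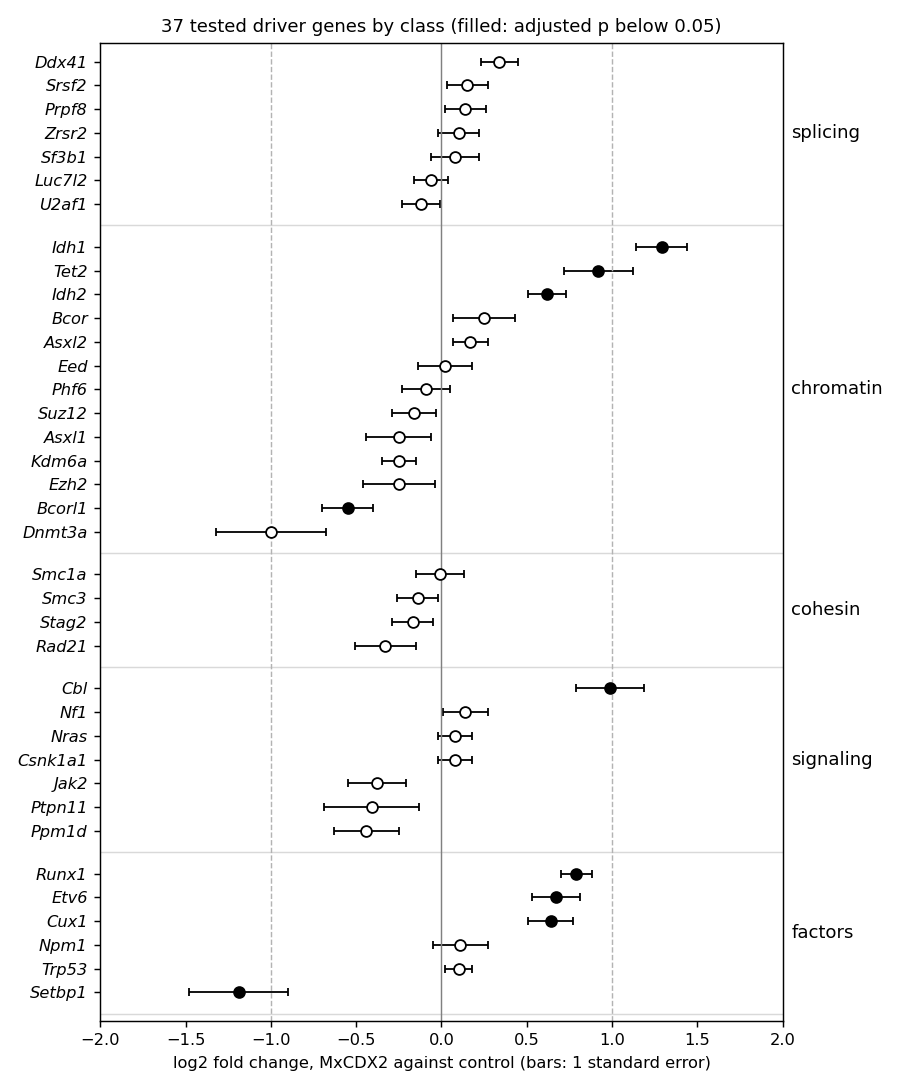
Log2 fold change of each tested driver gene in *MxCDX2* against control bone marrow, by class, with bars of 1 standard error. Filled points have an adjusted p below 0.05, and dashed lines mark log2 fold changes of -1 and 1. The 9 filled points are in the chromatin, signaling and factor classes, and the 11 splicing and cohesin genes are all open. Of all tested genes, 21.7% had an adjusted p below 0.05.

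The chromatin class held the greatest rise. *Idh1* (GRCm38, chromosome 1, 65158616 to 65186500, minus strand) encodes the cytosolic isocitrate dehydrogenase that makes 2-oxoglutarate, the cofactor of the TET enzymes and of histone demethylases. Its normalized read count, that is, reads scaled to a common library size, was 2459, 3344 and 3086 in controls 1, 2 and 3 and 6607, 7018 and 8163 in *MxCDX2* mouse 1, 2 and 3, the order kept from here on. Every *MxCDX2* mouse was above every control. *Idh1* rose by a log2 fold change of 1.29 with a standard error of 0.15 (edgeR adjusted p = 0.00293), or 2.45-fold, and the change lay between 1.19 and 1.39 when any 1 mouse was left out, with an adjusted p of at most 0.0181.

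*Idh2* (chromosome 7, 80094846 to 80115392, minus strand) encodes the mitochondrial enzyme for the same reaction. Its normalized read counts were 3255, 3211 and 3853 in the controls and 4984, 5171 and 5752 in *MxCDX2* mice. The groups were again apart, with a smaller step than for *Idh1*. On the log2 scale *Idh2* rose by 0.62 with a standard error of 0.11 (edgeR adjusted p = 0.0118), and without *MxCDX2* mouse 3 the adjusted p was 0.0591.

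*Tet2* (chromosome 3, 133463679 to 133545139, minus strand) encodes a dioxygenase that oxidizes 5-methylcytosine and depends on 2-oxoglutarate. Normalized read counts were 2415, 1872 and 1484 in the controls and 3482, 4237 and 3201 in *MxCDX2* mice. The controls were spread, with the *RsCDX2* mouse highest and the wild-type mouse lowest, but all lay below the *MxCDX2* mice. *Tet2* rose by 0.92 on the log2 scale with a standard error of 0.20 (edgeR adjusted p = 0.0213). Leaving out any of the 3 *MxCDX2* mice or control 2 took the adjusted p to between 0.0508 and 0.0705, with log2 fold changes of 0.80 to 1.01.

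*Dnmt3a* (chromosome 12, 3806007 to 3914443, plus strand), which encodes the de novo DNA methyltransferase, did not pass the test. Its normalized read counts were 3610.0, 3899 and 8311 in the controls and 2516, 2631 and 2775 in *MxCDX2* mice. All 3 *MxCDX2* mice were below all controls, and the wild-type mouse was far above the other controls, giving this gene the widest control spread of all driver genes (a coefficient of variation of 50%). The log2 fold change was -1.00 with a standard error of 0.32 (edgeR adjusted p = 0.069). Without the wild-type mouse the difference was smaller and past the threshold, at -0.49 with an adjusted p of 0.0145, and DESeq2 on all 6 mice gave -0.99 with an adjusted p of 0.0215.

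*Bcorl1* (chromosome X, 48341358 to 48408049, plus strand) encodes a corepressor of the variant Polycomb complex that also holds BCOR. Normalized read counts were 2994, 3011 and 2139 in the controls and 1905, 1777 and 1884 in *MxCDX2* mice. The wild-type control was the lowest of its group and only a little above the highest *MxCDX2* mouse. *Bcorl1* fell by 0.55 on the log2 scale with a standard error of 0.15 (edgeR adjusted p = 0.0453), and this call was held in 1 of 6 fits that left out a mouse (that without the wild-type control, with an adjusted p of 0.106 to 0.137 in the other 5). Its relative *Bcor* was at 4027, 4777 and 2947 against 4573, 5028 and 4368, with overlapping groups (log2 fold change 0.25, adjusted p = 0.372).

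The other chromatin genes did not pass the test. The Polycomb repressive complex 2 that methylates histone H3 at lysine 27 was represented by its catalytic subunit *Ezh2* (log2 fold change -0.25, standard error 0.21) and by *Eed* (0.02, 0.16) and *Suz12* (-0.16, 0.13), and in all 3 the groups overlapped. *Ezh2* had normalized read counts of 6357, 7098 and 4082 in the controls, and without the wild-type mouse, the lowest of them, its log2 fold change was -0.43 with an edgeR adjusted p of 0.0305. *Kdm6a*, which encodes a demethylase of the same lysine, was lower in each *MxCDX2* mouse (2577, 2558 and 2410.4) than in each control (3119, 3147 and 2678) with a log2 fold change of -0.25 and an adjusted p of 0.142, or 0.0462 without the wild-type mouse. *Asxl1*, whose protein joins the BAP1 deubiquitinase, had a log2 fold change of -0.25 (adjusted p = 0.388), and its paralogue *Asxl2* one of 0.17 (adjusted p = 0.281). *Phf6*, for a zinc finger protein of the nucleolus, was at -0.09 (adjusted p = 0.696). Of 33 other tested genes of these complexes, 2 rose and 3 fell (15.2%, beside 21.7% of all tested genes). These were *Kdm2b* (0.76) and *Phf19* (1.00), and *Phf1* (-0.84), *Rybp* (-0.81) and *Kdm6b* (-0.51). *Phf1* and *Phf19* encode alternative accessory subunits of Polycomb repressive complex 2, and *Kdm2b* and *Rybp* subunits of variant Polycomb repressive complex 1.

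**Figure D2:**
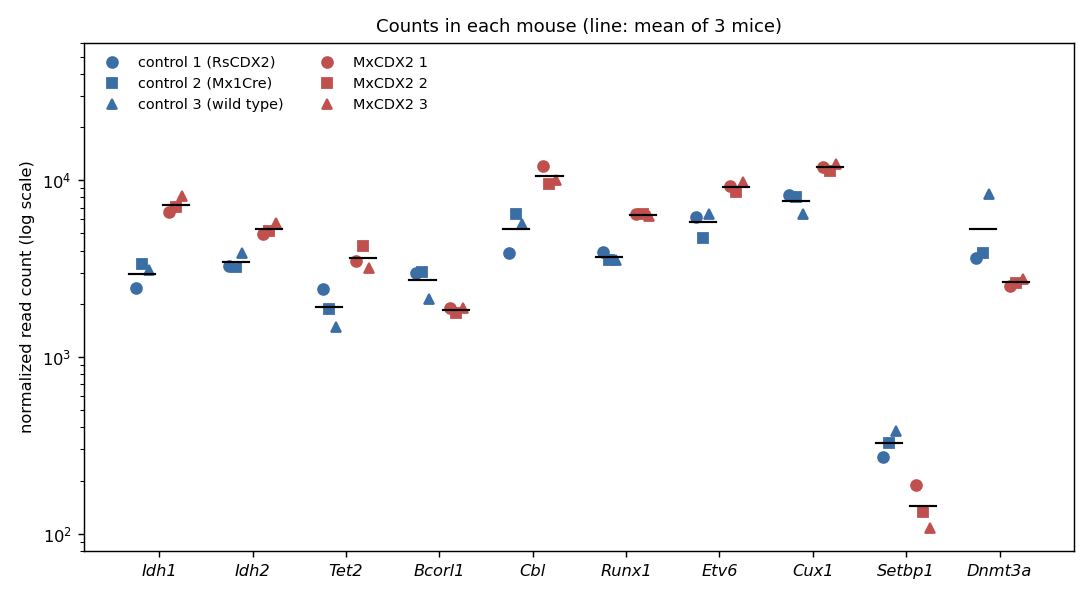
Normalized read count on a log scale in each mouse for the 9 driver genes with an adjusted p below 0.05 and for *Dnmt3a*. Blue symbols are the controls (circle *RsCDX2*, square *Mx1Cre*, triangle wild type), red symbols the *MxCDX2* mice, and black lines the means of 3 mice. No group overlaps the other in any of the 10 genes, and the wild-type control stands apart for *Dnmt3a* at 8311. As 9 of them were picked by adjusted p between these same mice, the lack of overlap adds no support. Of all tested genes, 21.4% were apart as higher and 20.7% as lower. Heights can be compared within a gene only, since the counts are not scaled by length.

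Among the transcription factors and nuclear regulators, 3 of the 6 tested genes rose and 1 fell, beside 9.91% and 11.8% of all tested genes. *Runx1* (chromosome 16, 92601466 to 92826149, minus strand) encodes the DNA-binding subunit of core binding factor, which is needed to form blood stem cells and to mature megakaryocytes and lymphocytes. Its normalized read counts were 3938, 3558 and 3541 in the controls and 6416, 6432 and 6236 in *MxCDX2* mice. Both groups were tight, with coefficients of variation of 6.11% and 1.71%. *Runx1* rose by 0.79 on the log2 scale with a standard error of 0.09 (edgeR adjusted p = 0.00277), or 1.73-fold, and stayed past the threshold under all 12 alternatives tried, as *Idh1* also did.

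*Etv6* (chromosome 6, 134035700 to 134270158, plus strand) encodes a repressor of the ETS family that blood stem cells require in adult marrow. Normalized read counts were 6171, 4703 and 6456 in the controls and 9238, 8609 and 9771 in *MxCDX2* mice, so that the groups did not overlap. *Etv6* rose by 0.67 on the log2 scale with a standard error of 0.14 (edgeR adjusted p = 0.019). It missed the threshold without *MxCDX2* mouse 1 (adjusted p = 0.0549) and without *MxCDX2* mouse 3 (0.08).

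*Cux1* (chromosome 5, 136248135 to 136567490, minus strand) encodes a homeobox factor whose human gene lies on the long arm of chromosome 7, which is often lost in MDS. Its normalized read counts were 8291, 8061 and 6465 in the controls and 11856, 11227 and 12389 in *MxCDX2* mice, again with no overlap. *Cux1* rose by 0.64 on the log2 scale with a standard error of 0.13 (edgeR adjusted p = 0.0154), and 0.61 without *MxCDX2* mouse 3 (adjusted p = 0.0724). Its paralogue *Cux2* was almost silent in the controls, at 10.2, 7.94 and 5.47 normalized reads, and reached 398, 198 and 521 in *MxCDX2* mice (log2 fold change 5.56, standard error 0.50, adjusted p = 0.00174).

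*Setbp1* (chromosome 18, 78750380 to 79109391, minus strand), for a protein that binds the oncoprotein SET, was the lowest expressed of the tested driver genes. Normalized read counts were 271, 326 and 381 in the controls and 190, 132 and 108 in *MxCDX2* mice. All *MxCDX2* mice were below all controls. *Setbp1* fell by 1.19 on the log2 scale with a standard error of 0.29 (edgeR adjusted p = 0.0293). The fall was between 1.01 and 1.44 with 1 mouse left out, and 4 of these 6 fits missed the threshold, with an adjusted p of up to 0.106.

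*Trp53*, for the tumor suppressor p53, shows how narrow a step can keep groups apart: it had 5249.5, 5522 and 5355 normalized reads in the controls and 5637, 5699.7 and 5992 in *MxCDX2* mice, and its log2 fold change was 0.10 with a standard error of 0.08 (edgeR adjusted p = 0.427). *Npm1*, for the nucleolar chaperone nucleophosmin, had 16174, 15407 and 21638 against 18622, 19067 and 19882, with overlapping groups and a log2 fold change of 0.11 (adjusted p = 0.65). *Wt1*, for a zinc finger factor, had 0 reads in all 6 mice and was not tested. A count of 0 allows up to 3 reads in a mouse, which is at most 0.0136 RPKM (reads per kilobase of exon, scaled to the size of the library). Of 17 other tested genes of this class, 3 rose and 1 fell (23.5%, beside 21.7% of all tested genes). These were *Cux2*, *Npm3* (0.63), *Cebpa* and *Mxd1*. *Cebpa*, the master factor of granulocytes and monocytes, was at 2422, 2472 and 2167 in the controls and 6821, 6775 and 9601 in *MxCDX2* mice (log2 fold change 1.72, adjusted p = 0.00191). *Mxd1*, for a MYC antagonist of maturing cells, was at 49438, 40664 and 26870.2 against 17038, 13217 and 12846 (-1.44, adjusted p = 0.00994). Of 8 monocyte markers 7 were called higher, and of 10 neutrophil markers 4 were called lower and 1 higher. Their part in the values of *Cebpa* and *Mxd1* was not tested.

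The promoters of the driver genes were read from RefSeq (GRCm38.p6), from 250 bases before to 50 bases after each annotated start. Of the 38 genes, 31 had an entry, with 37 promoters in all. These were rich in C and G, with a median of 65% and of 24 CpG dinucleotides, beside 52.7% and 7 over all 32851 promoters. The 5 letters TTTAT, the core that CDX proteins bind, stood on either strand in 7 of the 37 (18.9%) and in 40% of all promoters. Of the 10 promoters of driver genes that changed, 2 held them, and these are shown with the promoter of *Idh1*, the gene with the greatest rise, which did not. Each is given 5′ to 3′ on the strand of its gene, with TTTAT or its reverse complement ATAAA in capitals. The *Runx1* promoter is that of its upstream start (chr16:92826025-92826324, minus strand), the *Etv6* promoter lies at chr6:134035450-134035749 (plus strand), and the *Idh1* promoter at chr1:65186430-65186729 (minus strand).
Runx1: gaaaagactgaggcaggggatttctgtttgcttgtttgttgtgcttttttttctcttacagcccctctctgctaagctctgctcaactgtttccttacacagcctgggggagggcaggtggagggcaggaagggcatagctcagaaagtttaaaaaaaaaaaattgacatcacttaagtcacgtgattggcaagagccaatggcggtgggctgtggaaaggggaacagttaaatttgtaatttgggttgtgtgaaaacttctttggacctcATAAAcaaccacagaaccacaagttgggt
Etv6: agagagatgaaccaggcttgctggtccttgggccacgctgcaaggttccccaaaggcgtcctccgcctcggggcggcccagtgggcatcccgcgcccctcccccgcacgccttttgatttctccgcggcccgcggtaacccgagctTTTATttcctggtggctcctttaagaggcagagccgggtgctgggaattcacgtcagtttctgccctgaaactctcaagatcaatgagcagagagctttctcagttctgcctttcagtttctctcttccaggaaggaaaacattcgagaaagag
Idh1: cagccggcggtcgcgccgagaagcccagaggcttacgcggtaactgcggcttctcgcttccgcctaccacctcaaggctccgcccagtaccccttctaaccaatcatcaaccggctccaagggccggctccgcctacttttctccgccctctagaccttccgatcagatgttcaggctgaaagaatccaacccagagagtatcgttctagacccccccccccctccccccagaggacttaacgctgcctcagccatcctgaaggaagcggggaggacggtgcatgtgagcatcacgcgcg
The *Runx1* promoter had 2 CpG dinucleotides and 45% C and G, well below the median of the driver genes, and the downstream *Runx1* promoter (chr16:92697280-92697579) had 35 and 69% and none of the 5 letters. The letters TTNNGNAA, which C/EBP factors bind and in which N is any base, were in 13 of the 37 promoters (35.1%, beside 40.7% of all) and in 1 of the 10. CCGGAAG, for ETS factors, was in 4 (10.8%, beside 8.86%) and in 0 of the 10, and AGATAA, for GATA factors, in 2 (5.41%, beside 11.2%) and in 0 of the 10. A match of letters describes the sequence and does not show that a protein binds there.

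In the signaling class 1 of 7 genes was called (14.3%, beside 21.7% of all tested genes). *Cbl* (chromosome 9, 44142976 to 44234049, minus strand) encodes a ubiquitin ligase that marks activated receptor tyrosine kinases for degradation. Its normalized read counts were 3863, 6415 and 5628 in the controls and 12029.7, 9525 and 10003 in *MxCDX2* mice. The *RsCDX2* control was the lowest and *MxCDX2* mouse 1 the highest, and the groups were apart. *Cbl* rose by 0.99 on the log2 scale with a standard error of 0.20 (edgeR adjusted p = 0.0173), just short of the limit of 1. Without *MxCDX2* mouse 1 it was 0.88 (adjusted p = 0.0515) and without *MxCDX2* mouse 3 it was 1.03 (0.0581).

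The other 6 signaling genes overlapped between the groups. *Ptpn11*, for the phosphatase SHP2, was at 11079, 9991 and 20359 in the controls and 11367, 9362 and 10372 in *MxCDX2* mice. The wild-type control alone was high, and the log2 fold change went from -0.41 (standard error 0.28, edgeR adjusted p = 0.333) to -0.01 without that mouse. *Jak2*, for the kinase of the erythropoietin receptor, was likewise highest in the wild-type control (7182, 6030.3 and 9371 against 6264, 5612 and 5428, log2 fold change -0.38, adjusted p = 0.159). The Ras protein *Nras* and its negative regulator *Nf1* had log2 fold changes of 0.08 and 0.14, the casein kinase *Csnk1a1* 0.08, and *Ppm1d*, for a phosphatase that switches off the p53 response, -0.44 (adjusted p = 0.144). Of 35 other signaling genes, 2 rose and 3 fell (14.3%, beside 21.7% of all tested genes). The 1 past both thresholds was *Tyk2*, a kinase of interferon receptors, at 3889.8, 4253 and 4263 against 7558, 9761 and 8233 (log2 fold change 1.04, adjusted p = 0.00301). The others that changed were *Map2k1* (0.59), *Kit* (-0.69), *Jak1* (-0.38) and *Ppm1b* (-0.39).

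None of the 7 splicing genes was called, where 21.7% of all tested genes were. *Ddx41*, for an RNA helicase of the spliceosome, came closest, at 2660.5, 2809 and 2318 normalized reads in the controls and 3179, 3318 and 3342 in *MxCDX2* mice. The groups were apart by a narrow step, with a log2 fold change of 0.34, a standard error of 0.11 and an edgeR adjusted p of 0.0636. *Sf3b1*, *U2af1*, *Zrsr2* and *Srsf2*, whose proteins recognize the branch point, the major and the minor 3′ splice site and exonic enhancers, had log2 fold changes of 0.08, -0.12, 0.10 and 0.15. *Prpf8*, for the scaffold of the catalytic core, was at 0.14 and *Luc7l2*, for a U1 particle protein, at -0.06. Standard errors in the class were between 0.10 and 0.14, and no gene of it was past the threshold in any fit that left out a mouse. *Srsf2* shares 15.6% of its exon length with *Mettl23* and 9.74% with *Mfsd11* on the opposite strand, and the strand setting of the read counting is not given in the sources used here. Among 40 other splicing genes, 2 rose and 1 fell (7.5%, beside 21.7% of all tested genes). These were *Srsf9* (0.43), *Snrpb2* (0.34) and *Zrsr1* (-0.89), and *Zrsr1* is the retrogene relative of *Zrsr2*.

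None of the 4 genes of the cohesin ring was called either, and their log2 fold changes were all below 0, though that of *Smc1a* turned to 0.12 when scaled by total counts alone and to 0.02 when every gene with a count was tested. *Rad21*, for the subunit that closes the ring, had 22411, 19848 and 14872 normalized reads in the controls and 16008, 13156 and 16312 in *MxCDX2* mice. The wild-type control lay within the range of the *MxCDX2* mice, and the log2 fold change was -0.33 with a standard error of 0.18 (edgeR adjusted p = 0.243), or -0.46 without the wild-type control (adjusted p = 0.0425). *Stag2*, *Smc3* and *Smc1a*, for the other 3 subunits, were at -0.17, -0.14 and -0.01, with standard errors of 0.12 to 0.14. Of 15 other tested cohesin genes, 0 rose and 2 fell, the releasing factor *Wapl* (-0.47) and the acetyltransferase *Esco2* (-0.77), which is used in S phase. Of all tested genes, 11.8% were called lower. Of 12 proliferation markers, 4 were called lower and 8 were not called, and their part in these values was not tested.

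In RPKM, which can be compared between genes, the levels of the driver genes in control bone marrow ranged widely. *Npm1* was highest at 146 ± 28.0 (SD, n = 3), followed by *Rad21* at 99.0 ± 19.9, *Srsf2* at 67.3 ± 5.13, *Prpf8* at 65.3 ± 5.13 and *Sf3b1* at 49.0 ± 6.61. The control mice did not overlap between *Npm1* and *Trp53*, the next of its class at 29.2 ± 0.747, but did between *Srsf2* and *Prpf8*, whose order is thus open to the spread of the mice. *Setbp1* was lowest of the tested genes at 0.72 ± 0.122, and *Nf1*, *Tet2* and *Zrsr2* were at 2.07 ± 0.264, 2.51 ± 0.61 and 3.45 ± 0.0765. Averaged over the 6 mice, 33 of the 38 genes were above 4.83, the median of tested genes. In the chromatin class the first 11 genes formed a chain in which each overlapped the next, from *Idh2* at 29.2 ± 3.05 to *Phf6* at 6.41 ± 0.581. In *MxCDX2* mice *Idh1* reached 57.6 ± 6.4 and *Idh2* 45.1 ± 3.4, which put the mean of *Idh1* above those of *Idh2* and *Suz12*, while in the controls it had been below both, with *Suz12* and *Idh1* overlapping between the control mice.

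**Figure D3:**
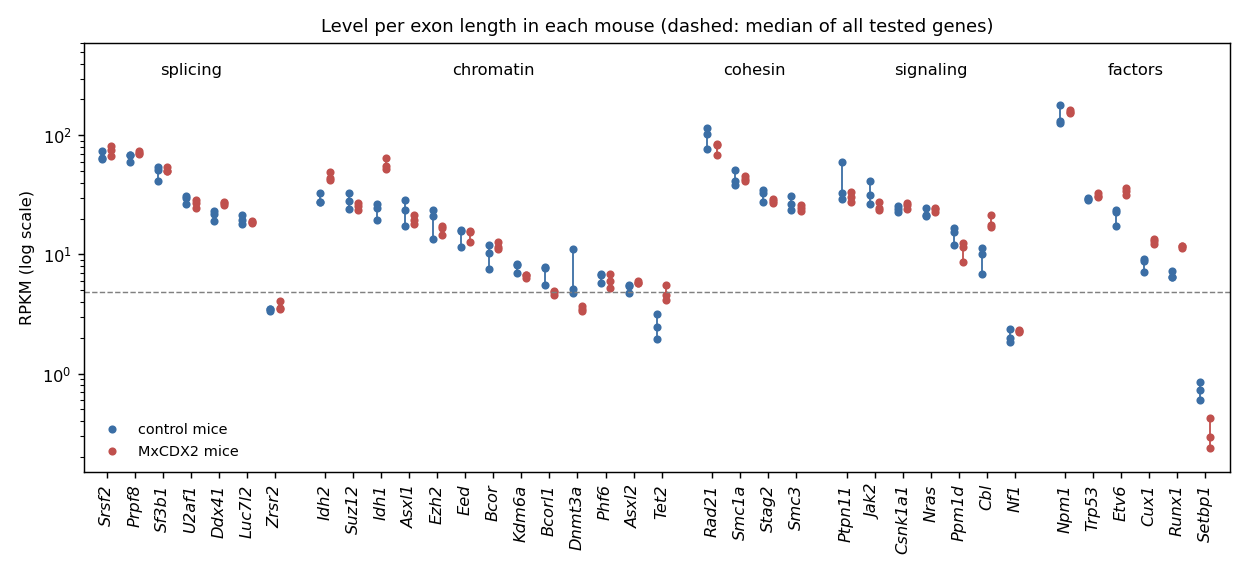
RPKM on a log scale in each of the 3 control mice (blue) and 3 *MxCDX2* mice (red) for the 37 tested driver genes, ordered within each class by their control mean, with vertical lines from the lowest to the highest mouse. The dashed line is the median of all tested genes, 4.83. *Npm1* lies highest and *Setbp1* lowest, and *Idh1*, *Cbl* and *Runx1* show red points above blue ones.

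The median coefficient of variation of the driver genes was 13.6% in the controls and 6.31% in *MxCDX2* mice, beside 18.4% and 14.2% over all tested genes. As 33 of the 38 driver genes were above the median RPKM of tested genes, they were not compared at a like level. The part of level in this difference was not tested. In 9 driver genes the control coefficient was above 20%, with *Dnmt3a* (50%), *Ptpn11* (41.3%), *Ezh2* (26.9%), *Cbl* (24.6%) and *Tet2* (24.3%) at the top. The wild-type mouse was the lowest of the controls for 24 of 37 driver genes, the *RsCDX2* mouse for 7 and the *Mx1Cre* mouse for 6. This was not counted over all tested genes, so it cannot be read as a trait of driver genes. With 1 mouse per control genotype, the genotype and the single mouse cannot be told apart. On the X chromosome lay 7 of the 38 genes, of which only *Bcorl1* was called, where 21.7% of all tested genes were.

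Each of 11 driver genes was also set against a relative within the same mouse, which makes the comparison free of scaling between libraries. The log2 ratio of *MxCDX2* mice was above all controls in 4 pairs, below them in 4 and overlapping in 3. In each of the 8 the exact two-sided permutation test gave p = 0.10, the smallest that 3 mice against 3 allow, or 0.14 after adjustment over the 11 pairs. Taken singly, 21.4% of all tested genes were apart as higher and 20.7% as lower. Ratios of other gene pairs were not counted, so these counts cannot be read as a trait of driver genes. The greatest step was that of *Cbl* over *Cblb*, another ubiquitin ligase of its family, with log2 ratios of 0.62, 1.26 and 1.55 in the controls and 2.23, 2.74 and 2.49 in *MxCDX2* mice. The mean log2 ratios were 1.14 ± 0.48 and 2.49 ± 0.25 (SD, n = 3), and *Cblb* by itself overlapped between the groups.

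The log2 ratio of *Idh1* to *Idh2* was -0.40, 0.06 and -0.32 in the controls and 0.41, 0.44 and 0.51 in *MxCDX2* mice. These ratios are not scaled by exon length. In RPKM *Idh1* was at 0.706, 0.973 and 0.748 of *Idh2* in the controls and at 1.24, 1.27 and 1.33 in *MxCDX2* mice. *Tet2* over *Tet3* was at -1.67, -2.37 and -2.15 against -1.60, -0.99 and -1.58, where *MxCDX2* mouse 1 was only just above control 1. *Kdm6a* over *Kdm6b* was higher by 0.26.

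The ratio was lower in *MxCDX2* mice for *Dnmt3a* over *Dnmt3b* by -0.76 (2.63, 2.73 and 3.15 against 2.22, 2.02 and 1.98), for *Asxl1* over *Asxl2* by -0.39, for *Luc7l2* over *Luc7l3* by -0.27 and for *Stag2* over *Stag1* by -0.24. For *Stag2* the step was small but so was the spread, with 1.44 ± 0.05 in the controls and 1.21 ± 0.04 in *MxCDX2* mice. Without the wild-type mouse the *Dnmt3a* difference was -0.60, and *Dnmt3b* was also highest in that mouse (584, 587 and 936 normalized reads in the controls). *Ezh2* over *Ezh1*, *Runx1* over *Runx3* and *Jak2* over *Jak1* overlapped between the groups, with differences of -0.21, 0.18 and 0.02. *Runx3* was at 1673, 1652 and 2303 in the controls and 3259.5, 2390.4 and 2934 in *MxCDX2* mice (log2 fold change 0.61, adjusted p = 0.055).

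**Figure D4:**
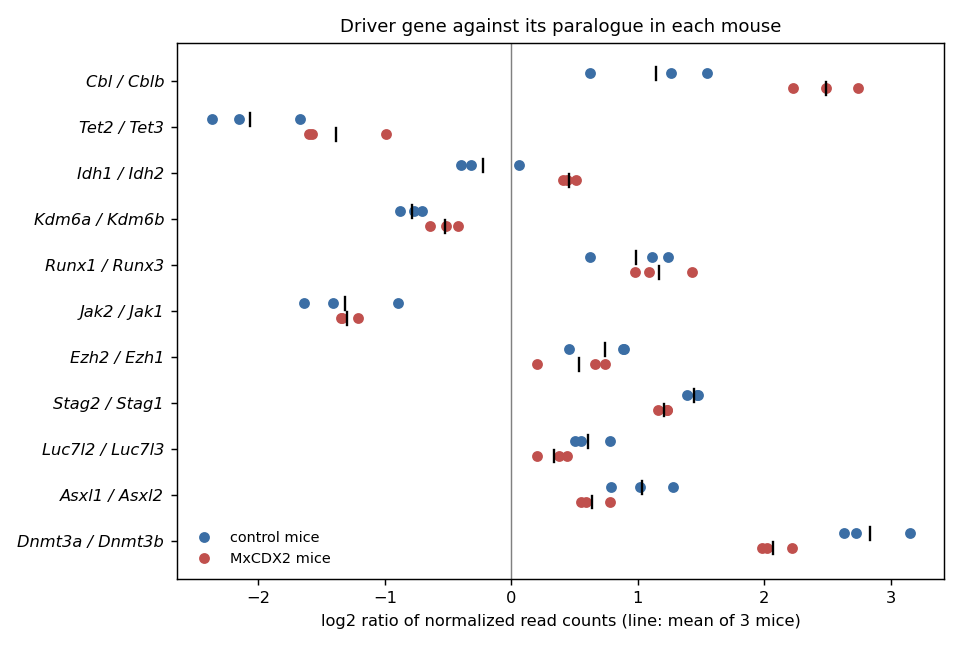
Log2 ratio of normalized read counts of a driver gene to its relative in each control mouse (blue) and each *MxCDX2* mouse (red), with black lines for the means of 3 mice, ordered by the difference between groups. *Cbl* over *Cblb* stands at the top with a difference of 1.34 and *Dnmt3a* over *Dnmt3b* at the bottom with -0.76.

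The calls differed in how far they withstood another test, scaling or filter and the loss of a mouse. Of 12 such fits, *Runx1* and *Idh1* were past the threshold in 12, *Idh2* and *Cux1* in 11, *Cbl* and *Etv6* in 10, *Tet2* and *Setbp1* in 8 and *Bcorl1* in 5. All 9 kept their direction in every fit. With the wild-type mouse left out, *Dnmt3a*, *Ezh2*, *Kdm6a* and *Rad21* joined *Bcorl1* and *Setbp1* as lower in *MxCDX2* mice. Calls also rose over all tested genes in that fit, to 2241 lower and 2120 higher. With all mice kept they were 1888 and 1583. Whether driver genes gained more calls than other genes was not tested.

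**Figure D5:**
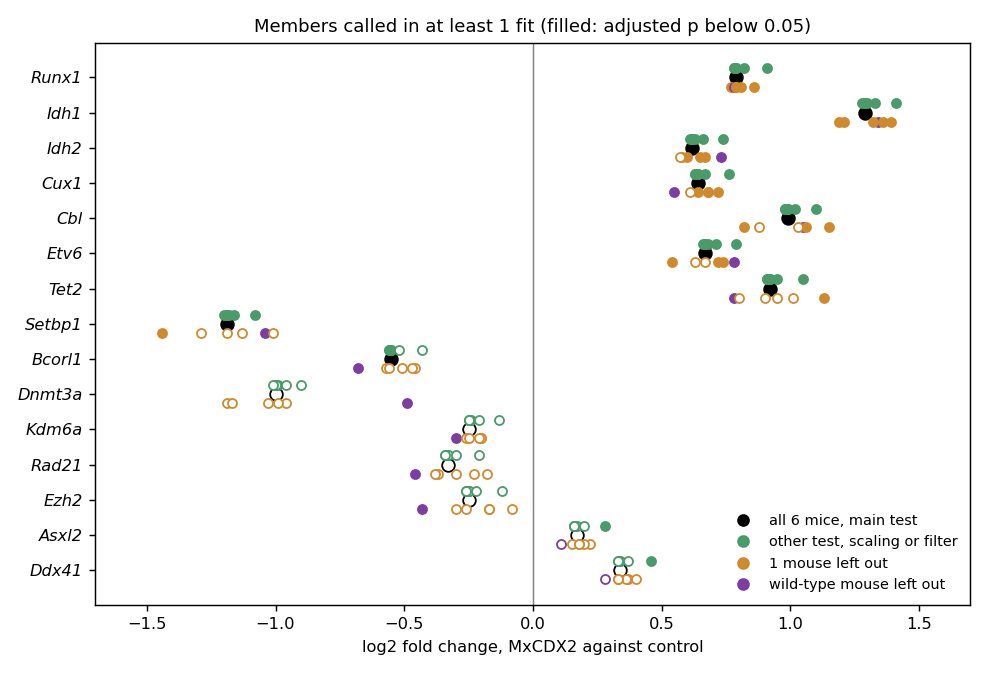
Log2 fold change of the 15 driver genes that had an adjusted p below 0.05 in at least 1 fit. Black points are the test on all 6 mice, green points other tests, scalings and filters, orange points fits that leave out 1 mouse, and purple points the fit without the wild-type mouse, and filled points have an adjusted p below 0.05. *Runx1* and *Idh1* are filled throughout, and the purple point of *Dnmt3a* lies at -0.49, apart from its others.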

How the data were processed

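Stranded mRNA libraries were made from bone marrow RNA of 6 mice. The authors aligned the reads with STAR 2.5 to GRCm38 (Ensembl release 90) and counted them per gene with HTSeq 0.6.1, and raw counts without normalization were deposited by the authors, 1 table per mouse. Between 12.2% and 17.1% of the reads were on lines that name no gene (no feature or ambiguous), which were left out. Symbols, positions and exon lengths came from GENCODE M21, which matched 37607 of 39179 identifiers. The members, classes, lists and tests were chosen with earlier results of these data known. Counts were analysed with edgeR 4.0.16 in R 4.3.3 (TMM, filterByExpr, glmQLFit, glmQLFTest), 3 mice against 3, and p-values were adjusted by Benjamini-Hochberg over 15980 genes. Adjusted p-values without a named tool are from edgeR. Standard errors follow from the log2 fold change and the F statistic of the gene. RPKM used the TMM library sizes, and ratios a pseudocount of 0.5. The script was tested on simulated data. Alternatives were DESeq2 1.42.0, other scalings and filters, and each mouse left out. All 38 members are named, with values per mouse for those called and for the member of greatest absolute fold change in each class. Of other genes, those past both thresholds and the paralogues are given. The tested members had a mean of at least 233 raw reads over the 6 mice. Protein sequences were not analysed here, and some genes of the lists and ratios are not reported here. Python 3.11.15 served for ratios and exact tests (scipy 1.17.1) and for the plots (matplotlib 3.10.9).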

Additional observations from a re-analysis of the deposited data

How the results depend on the processing

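No paired analysis was possible because the labels number only the *MxCDX2* mice, while the controls differ in genotype and are numbered by their order of deposit. Scaling by total counts alone put the median log2 fold change of all tested genes at 0.118, gave 2343 genes called higher and 1657 lower where the main scaling gave 1583 and 1888, and 3 driver genes were past both thresholds as higher (*Idh1*, *Tet2* and *Cbl*), 1 was called lower, 1 splicing gene (*Ddx41*) was called, and 6 other splicing genes and 8 other factor genes were. Testing every gene with at least 1 count gave 2 driver genes past both thresholds as higher, 1 called lower, 1 other cohesin gene and 3 other signaling genes, and DESeq2 gave 7 other factor genes. Of the single genes, total counts alone turned the direction of *U2af1* (0.00), *Luc7l2* (0.06), *Phf6* (0.03) and *Smc1a* (0.12), and testing every gene that of *Smc1a* (0.02), none of which passed the test.

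With 1 mouse left out, the calls ranged over 1482 to 4361 of all tested genes, 2 to 7 driver genes higher and 0 to 6 lower, 1 to 2 and 0 to 1 past both thresholds, 1 to 7 chromatin, 0 to 1 cohesin, 0 to 1 signaling, 1 to 4 factor and 0 to 0 splicing genes, and among the other genes 1 to 5 splicing, 2 to 6 chromatin, 0 to 5 cohesin, 2 to 7 signaling and 2 to 7 factor genes. The highest of these ranges came without the wild-type mouse. The direction turned for *Sf3b1* (-0.01 to 0.16), *Luc7l2* (-0.10 to 0.00), *Eed* (-0.10 to 0.12), *Phf6* (-0.19 to 0.01) and *Smc1a* (-0.08 to 0.14), and in the ratios for *Runx1* over *Runx3* (-0.01 to 0.30) and *Jak2* over *Jak1* (-0.14 to 0.23). The other ratios ranged from -0.35 to -0.05 for *Ezh2*, -0.27 to -0.21 for *Stag2*, -0.51 to -0.27 for *Asxl1*, 0.48 to 0.87 for *Tet2*, -0.87 to -0.60 for *Dnmt3a*, 0.21 to 0.32 for *Kdm6a*, 0.58 to 0.81 for *Idh1*, 1.08 to 1.55 for *Cbl* and -0.33 to -0.19 for *Luc7l2*. Why these values moved was not tested. A leaving-out fit of 2 mice against 3 has fewer samples and so, in general, less power. Without the wild-type mouse 4361 genes were called, beside 3471 with all 6 mice and 1482 to 2485 without any other mouse.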

Other observations

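The wild-type control mouse stood apart from the other controls for several further genes, chosen here after their values were seen. *Flt3*, for a receptor of early progenitors, had 1305, 1242 and 3767 normalized reads in controls 1, 2 and 3 against 1082, 842 and 1025 in the *MxCDX2* mice. *Gata2*, a factor of stem cells and megakaryocytes, had 1269, 1459 and 3599 against 859, 1052 and 821, and *Mecom*, a stem cell factor, 21.7, 20.9 and 171 against 7.42, 14.7 and 24.4. The wild-type mouse was thus the highest of all 6 for these 3 genes, as it was for *Dnmt3a*, *Ptpn11*, *Jak2*, *Setbp1*, *Npm1* and *Nf1*. For *Nf1* the step was narrow, at 1701 against 1668 in *MxCDX2* mouse 1. The share of the control spread in these genes that belongs to genotype, and the share that belongs to the mouse, cannot be told apart with 1 mouse per genotype.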
